A study of Homo sapiens with 4 samples.

Results

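The collagen genes were taken as the rows whose symbol has the form COL, a number, A and a number, which gave 32 of the 20226 genes listed for Huh7 cells, an established human line derived from hepatocyte carcinoma. The rule used no expression value. The study set 2 RNA-seq libraries of shNUP210 cells, which carry a hairpin directed at NUP210, a gene for a membrane-spanning pore component of the nuclear envelope, against 2 libraries of shCon cells, whose genotype is given as wild type. All 4 libraries carry the label untreated, and the time after hairpin delivery and whether a group is 1 clone or a pool are not given in the sources used here. Whether libraries of 1 group stem from different cultures is not stated, and p-values here reflect the variation among 4 libraries, part or all of which may be technical. In bulk RNA of this kind, fewer cells that express a gene and less RNA per cell cannot be told apart.

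Collagens are trimeric matrix proteins whose chains wind into a triple helix, with glycine recurring at a fixed spacing along the helix. Chains are hydroxylated, folded and joined in the endoplasmic reticulum, exported, trimmed of their propeptides and cross-linked outside the cell. Fibrillar collagens build the banded fibrils of tendon, skin, bone and cartilage, fibril-associated collagens sit on their surface, and network collagens form basement membranes. In liver most fibrillar collagen is made by stellate cells and fibroblasts, while hepatocytes are a source of type XVIII collagen.

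Values are TPM, a transcript abundance scaled to transcript length and library total, so levels can be compared between genes. Columns of TPM keep no read depth. Estimated from the lowest steps of genes with a single listed transcript, 1 fragment on a 1 kb transcript was worth about 0.575 and 0.625 TPM (shNUP210) and 0.475 TPM (each shCon library). Collagen transcripts are long, so 1 TPM rests on more fragments than for most genes; the COL4A5 values near 1.3 TPM in the shCon libraries correspond to about 17 and 18 fragments. NUP210 itself stood at 10.1 and 9.85 TPM in the shNUP210 libraries, against 32.82 and 27.28 TPM in the shCon libraries (limma adjusted p = 0.0432). All 9 hepatocyte markers were present in every library, with sums of 20013.1 and 20288.0 TPM in shNUP210 and 21553.2 and 20863.6 TPM in shCon. By limma 2 of the 9 rose in shNUP210, KRT8 and KRT18 (adjusted p of 0.0137 and 0.0247), and 2 fell, APOA1 and SERPINA1 (adjusted p of 0.00253 and 0.00977). Of 11 stellate cell and fibroblast markers 5 were among the genes listed, with sums of 22.7 and 12.8 TPM in shNUP210 and 13.3 and 13.2 TPM in shCon. PDGFRB, LUM, PDGFRA and RGS5 were those above 1 TPM in some library, and THY1 was at 0.5 and 0 TPM in shNUP210 and at 0 in shCon. Of these PDGFRB alone entered the test described further on and was not called, and the summed levels of the groups overlap. LUM was higher without overlap, at 4.02 and 3.01 TPM in shNUP210 and 1.71 and 2.64 TPM in shCon. PDGFRA was lower without overlap, at 0.6 and 0.25 TPM in shNUP210 and 1.27 and 1.29 TPM in shCon. PDGFRB, RGS5 and THY1 overlapped. Leukocyte markers (3 of 7 listed) summed to 22.3 and 6.3 TPM in shNUP210 and 35.2 and 27.4 TPM in shCon. Among them CD68 alone was lower without overlap (limma adjusted p = 0.204). It was at 13.85 and 2.48 TPM in shNUP210 and 30.66 and 17.85 TPM in shCon. CD14 overlapped, at 7.41 and 3.82 TPM in shNUP210 and 4.58 and 9.56 TPM in shCon. CSF1R was at 1.03 and 0 TPM in shNUP210 and at 0 in shCon. Of the 2189 exon bases of CD68, 1789 are shared with SNORA67 on the same strand. The single endothelial marker listed of 7, STAB2, was at 4.15 TPM in 1 shCon library and at 0 elsewhere. The part of such cells in the collagen values was not tested.

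Of the 32 collagen genes, 18 had a mean of at least 1 TPM in either group, and the other 14 stayed at or under 1.95 TPM in every library. Summed over all 32, collagen transcripts took 568.9 and 503.7 TPM in the shNUP210 libraries and 616.0 and 616.2 TPM in the shCon libraries. Both knockdown libraries lay below both controls. The difference of the means was -79.8 TPM in the values as deposited. It moved to between -178.0 and -143.1 TPM under the 4 other scalings tried. As deposited, COL2A1 alone fell by more than that difference, from a mean of 281.0 TPM in shCon to 97.06 TPM in shNUP210. The lower sum thus rests on that gene and does not give a direction for the collagens as a group. The sum without COL18A1, whose exons overlap another gene, is given with the other settings in the closing part. The 6 most abundant genes, COL2A1, COL18A1, COL5A2, COL26A1, COL1A2 and COL9A2, made up 86.0 and 84.7% of the sum in shNUP210 and 91.2 and 90.2% in shCon.

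**Figure D1:**
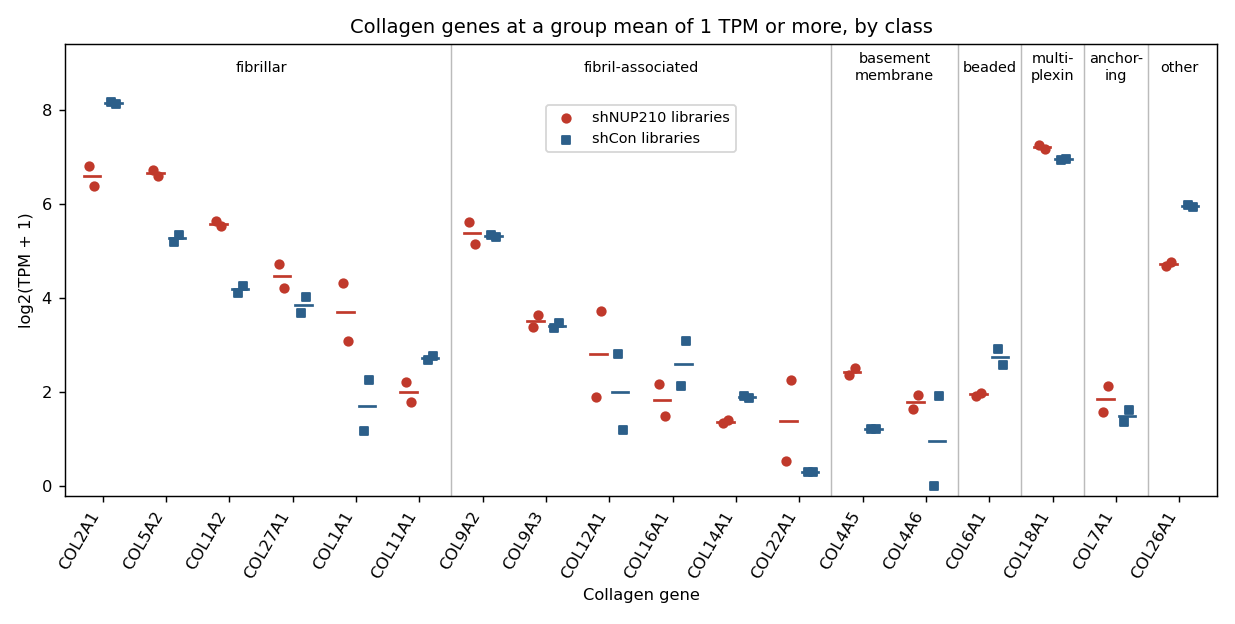
Level of each collagen gene with a group mean of at least 1 TPM, as log2(TPM + 1), in the shNUP210 (circles) and shCon (squares) libraries, grouped by collagen class; short lines are the means of the log values. COL2A1 and COL26A1 lie lower in both shNUP210 libraries, COL5A2, COL1A2 and COL4A5 lie higher, and COL9A2 and COL9A3 overlap.

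The make-up of the collagen transcripts differed more than their sum. COL2A1 was the most abundant collagen in shCon cells (mean 281.0 TPM) and ranked below 2 others in shNUP210 cells (97.06 TPM), COL18A1 (147.5 TPM) and COL5A2 (99.57 TPM). Its share of all collagen TPM was 19.6 and 16.4% in shNUP210, against 46.4 and 44.8% in shCon. The share of COL5A2 was 18.3 and 18.9% in shNUP210, against 5.81 and 6.43% in shCon. COL2A1 and COL5A2 stood at about the same level in shNUP210 cells (ratios of 1.07 and 0.868), whereas COL2A1 was 7.99 and 6.97 times COL5A2 in the shCon libraries. In the shNUP210 order, COL5A2 and COL2A1 do not differ beyond their spread, since their ranges overlap.

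**Figure D2:**
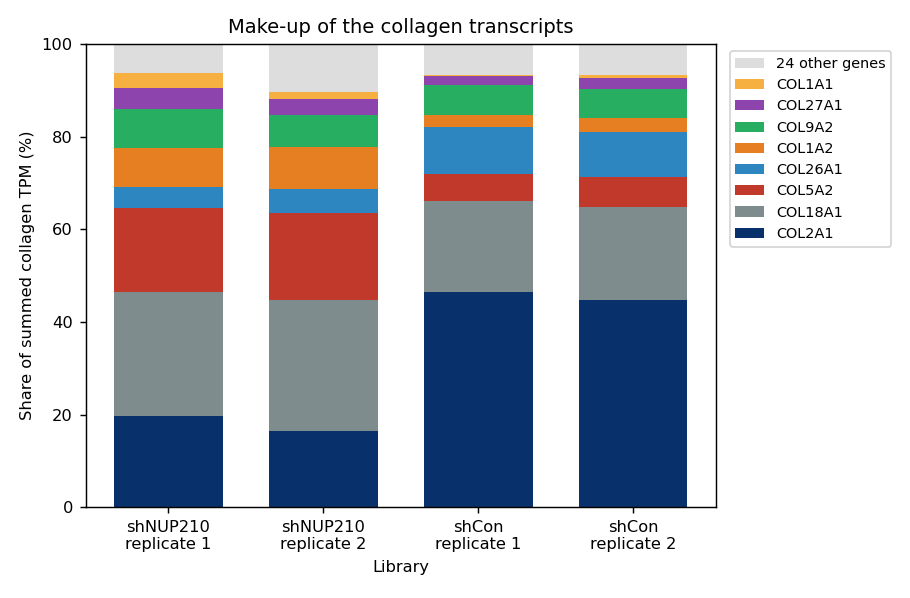
Share of each collagen gene in the summed TPM of all 32 collagen genes, in percent, for each of the 4 libraries; the 24 genes without a colour of their own are pooled. The COL2A1 share is 19.6 and 16.4% in shNUP210 and 46.4 and 44.8% in the shCon libraries, and the COL5A2, COL1A2 and COL18A1 shares are larger in shNUP210.

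Differences were tested with limma on log2(TPM + 1) over the 10140 genes with at least 5 TPM in 2 libraries. Of the 32 collagen genes 12 entered that test and 4 were called at an adjusted p under 0.05, COL5A2 and COL1A2 as higher and COL2A1 and COL26A1 as lower in shNUP210. Over all genes tested 2.86% were called, 1.79% as higher and 1.07% as lower. The 4 called genes are among the 8 collagens that had at least 5 TPM in all 4 libraries. COL1A1 entered through the shNUP210 libraries alone and COL6A1 and COL11A1 through the shCon libraries alone, so the count of tested collagens is not independent of their difference. The median log2 fold change of the 12 was 0.18, against 0.23 for all genes tested, so TPM as deposited were on the whole higher in shNUP210. With trimmed-mean scaling, which brings that median to 0.0069, the calls over all genes moved to 78 higher and 250 lower, against 181 higher and 109 lower in TPM as deposited. The 4 collagen calls were made under each of the trimmed-mean, median-ratio and upper-quartile scalings too.

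**Figure D3:**
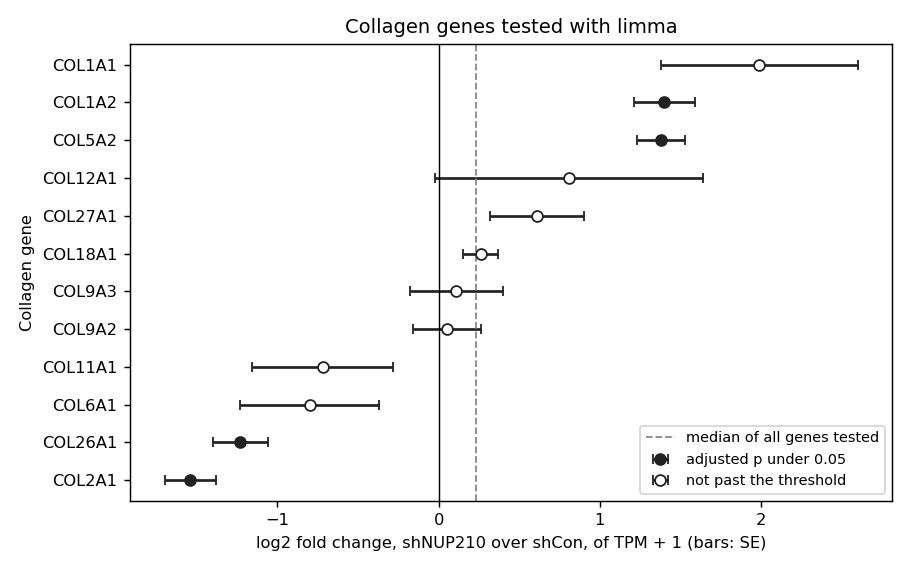
log2 fold change of TPM + 1, shNUP210 over shCon, for the 12 collagen genes tested; bars are standard errors, filled points passed an adjusted p of 0.05, and the dashed line is the median of all 10140 genes (0.23). COL5A2 and COL1A2 are called on the high side and COL26A1 and COL2A1 on the low side, while COL1A1 has the largest fold with a wide error.

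Among the fibrillar collagens, COL2A1 fell after knockdown. COL2A1 (ENSG00000139219, GRCh38 chromosome 12, 47972965 to 48004554, minus strand) encodes the chain of type II collagen, the main fibril protein of cartilage. It was at 111.41 and 82.7 TPM in shNUP210 libraries, against 285.86 and 276.13 TPM in the shCon libraries. Both knockdown libraries lay far below the controls and stood further apart from each other than the controls did. The shNUP210 mean was 97.06 ± 20.3 TPM and the shCon mean 281.0 ± 6.88 TPM (SD, n = 2 each), a ratio of 0.345, with a log2 fold change of -1.54 (SE 0.16, limma adjusted p = 0.0213).

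COL11A1 and the type IX genes encode the usual partners of type II collagen in cartilage fibrils. COL11A1, a type XI chain buried inside those fibrils, was at 3.68 and 2.46 TPM in shNUP210 and 5.39 and 5.87 TPM in shCon. The groups do not overlap, and the difference did not pass the test (log2 fold change -0.72, SE 0.44, limma adjusted p = 0.358). COL2A1 exceeded COL11A1 by 30.3 and 33.6 times in shNUP210 and by 53.0 and 47.0 times in shCon. COL9A2, a chain of the type IX collagen that decorates the fibril surface, was at 47.84 and 34.43 TPM in shNUP210 and 39.49 and 38.62 TPM in shCon. The shNUP210 libraries lay on either side of the controls, and the log2 fold change was 0.05 (SE 0.21), with an adjusted p of 0.903 by limma; that value turns to -0.18 after trimmed-mean scaling. COL9A3, a second chain of type IX, was at 9.47 and 11.51 TPM in shNUP210 and 9.26 and 10.02 TPM in shCon, also overlapping. COL9A1, the third type IX chain, was at 0.34 and 0 TPM in shNUP210 and at 0 in shCon. COL11A2, another type XI chain, stayed between 0.08 and 0.34 TPM.

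COL5A2 and COL1A2 rose. COL5A2 (ENSG00000204262, chromosome 2, 189031896 to 189225312, minus strand) encodes a chain of type V collagen, which lies inside type I fibrils and helps to start them. It was at 103.88 and 95.26 TPM in shNUP210, against 35.78 and 39.63 TPM in shCon. Both knockdown libraries lay well above both controls (2.64 times by the means, log2 fold change 1.38, SE 0.15, limma adjusted p = 0.0217). COL1A2 (ENSG00000164692, chromosome 7, 94394561 to 94431232, plus strand) encodes the second chain type of type I collagen, the main collagen of bone, tendon and scar. It was at 48.75 and 45.23 TPM in shNUP210, against 16.37 and 18.11 TPM in shCon, 2.73 times by the means (log2 fold change 1.40, SE 0.19, limma adjusted p = 0.0334). The pair kept a near-constant proportion, with 2.13 and 2.11 times as much COL5A2 as COL1A2 in shNUP210 and 2.19 times in each shCon library.

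COL1A1, which encodes the other type I chain and supplies most of the chains of the type I trimer, was far more variable. It was at 18.92 and 7.55 TPM in shNUP210 libraries, against 1.25 and 3.8 TPM in the shCon libraries. Both knockdown values lay above both controls, but the libraries within each group lay far apart. Its log2 fold change of 1.99 was the largest of the 12 collagens tested (SE 0.61), and it did not pass (limma adjusted p = 0.136). The residual SD of 0.82 on the log2 scale was matched or exceeded by 11.9% of the 3246 tested genes with a mean of 4 to 12 TPM. COL1A2 exceeded COL1A1 in every library, by 2.58 and 5.99 times in shNUP210 and by 13.1 and 4.77 times in shCon.

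Of the remaining fibrillar genes, COL27A1 alone was above 5 TPM. COL27A1, a cartilage collagen with a shorter helix, was at 25.31 and 17.56 TPM in shNUP210 and 11.91 and 15.32 TPM in shCon, without overlap and without passing the test (log2 fold change 0.61, SE 0.29, limma adjusted p = 0.26). COL3A1, the chain of type III collagen of skin and vessels, was at 0.63 and 1.23 TPM in shNUP210 and 0.32 and 0.18 TPM in shCon. It lies 19149 bases from COL5A2 on the opposite strand, and in every library its level was far below that of COL5A2. COL5A3 was listed at 0 in both shNUP210 libraries and was at 0.08 and 0.16 TPM in shCon. COL5A1, which encodes the major type V chain, was not among the genes listed. Summed over the 9 fibrillar genes analysed, the level was 312.7 and 252.3 TPM in shNUP210 and 357.2 and 359.3 TPM in shCon. That was 55.0 and 50.1% of collagen TPM in shNUP210 and 58.0 and 58.3% in shCon. The lower fibrillar sum likewise rests on COL2A1, whose mean fell by more than the mean of the sum.

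COL26A1 fell as well. COL26A1 (ENSG00000160963, chromosome 7, 101362820 to 101559024, plus strand) encodes a small collagen first described in mouse testis and ovary. It was at 24.75 and 26.2 TPM in shNUP210, against 61.97 and 60.12 TPM in shCon. The libraries of each group were close together and the groups well apart, at 0.417 of the control mean (log2 fold change -1.23, SE 0.17, limma adjusted p = 0.0328). By mean TPM it ranked 3 among collagens in shCon cells and 6 in shNUP210 cells, where both COL5A2 and COL1A2 stood above it.

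COL26A1 and the fibrillar chains differ in the glycine repeat. In GENCODE release 29 coding sequences, the longest unbroken run with a glycine codon at the start of each triplet of codons was 23 triplets in COL26A1, 339 in COL2A1, COL5A2 and COL1A2, and 338 in COL1A1. The other collagens ran from 28 triplets in COL28A1 to 343 in COL3A1, with 30 in COL18A1 and 217 in COL27A1. COL26A1 has the shortest run among the 32 genes. The first 10 triplets of the longest run of COL26A1 (chr7:101540040-101544077, plus strand) and of COL11A1, a fibrillar gene with a run of 338 (chr1:103008472-103012457, minus strand), are shown from the GRCh38 transcripts of GENCODE, where the spans include introns, with the first codon of each triplet, always a glycine codon, in capitals to make the shared repeat visible.
COL26A1: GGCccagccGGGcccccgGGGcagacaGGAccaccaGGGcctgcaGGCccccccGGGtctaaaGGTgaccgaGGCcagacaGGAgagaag
COL11A1: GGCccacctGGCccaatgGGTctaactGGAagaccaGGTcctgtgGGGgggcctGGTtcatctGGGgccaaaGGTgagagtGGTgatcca

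Promoters in the RefSeq table used here were matched for 23 of the 32 collagen genes. Of the called collagens COL26A1 was matched, and COL2A1, COL5A2 and COL1A2 were not. The 250 bases before the RefSeq start of COL26A1 (GRCh38.p14, chr7:101362625-101362874, plus strand, 64.8% G or C, 22 CpG pairs) are printed for that reason. The GENCODE start of COL26A1 given above, 101362820, lies inside this window, so its last bases are not upstream by that annotation. Each window was searched on both strands for 6 motifs. Core promoter motifs were the TATA box, spelled TATAAA, the CCAAT box, spelled by its name, and the GC box, spelled GGGCGG. Motifs of signalling factors were those of TEAD, spelled GGAATG, of SMAD, spelled CAGACA, and of AP-1, spelled TGANTCA. The COL26A1 window holds none of these letters, so it has no capitals, which would mark a match.
COL26A1 promoter: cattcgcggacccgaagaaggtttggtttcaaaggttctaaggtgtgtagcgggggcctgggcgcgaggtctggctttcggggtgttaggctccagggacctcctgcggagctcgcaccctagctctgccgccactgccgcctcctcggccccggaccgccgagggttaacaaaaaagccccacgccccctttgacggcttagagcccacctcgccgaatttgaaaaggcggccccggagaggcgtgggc
Over all 35116 promoters of that table, 10.7% hold the TATA letters, 32.0% the CCAAT letters, 42.6% the GC box, 11.9% the TEAD letters, 13.6% the SMAD letters and 6.57% the AP-1 letters in the same window. Among the 31 promoters listed for collagen genes, 18 hold the GC box, 11 the CCAAT letters and 6 the TATA letters, while 3 hold the TEAD letters, 3 the SMAD letters and 1 the AP-1 letters.

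The limits of the 4 calls are shared. None of the 4 passed with the wider filter of 1 TPM in 2 libraries, where adjusted p was 0.0505 for COL2A1, 0.0504 for COL5A2, 0.0605 for COL26A1 and 0.0619 for COL1A2 (limma), and 57 genes, 0.391%, were called in all. Leaving out a library ended each call except that of COL2A1 without shNUP210 replicate 1 (adjusted p = 0.0368), with adjusted p of 0.0582 for COL2A1 without shNUP210 replicate 2, 0.126 and 0.132 for COL2A1 without shCon replicate 1 or 2, 0.114 to 0.14 for COL5A2, 0.129 to 0.167 for COL26A1 and 0.138 to 0.162 for COL1A2, while every fold kept its direction (limma). Quantile normalization ended the COL1A2 call, at an adjusted p of 0.0547 (limma).

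COL18A1, the chain of the basement membrane collagen whose tail yields endostatin, was the most abundant collagen in shNUP210 cells. It was at 152.31 and 142.67 TPM in shNUP210 and 122.13 and 123.13 TPM in shCon. The groups do not overlap, yet the log2 fold change of 0.26 (SE 0.11, limma adjusted p = 0.231) is close to the median of all genes tested. Its exons share 1401 bases with SLC19A1 on the opposite strand, which was at 469.73 and 539.42 TPM in shNUP210 and 366.99 and 388.11 TPM in shCon. Strand-aware counting is not stated, and the part of that overlap in the COL18A1 values was not tested.

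Basement membrane type IV genes were low. COL4A5, a chain of the kidney and skin type IV networks, was at 4.15 and 4.72 TPM in shNUP210, against 1.32 and 1.34 TPM in shCon. Both knockdown libraries lay well above both controls, at 3.33 times by the means. It missed the filter of 5 TPM. With the filter of 1 TPM in 2 libraries its log2 fold change was 1.22 (SE 0.37) and it did not pass (limma adjusted p = 0.183). COL4A6, a partner chain whose gene starts head to head with COL4A5 with 346 bases between the annotated ends, was at 2.14 and 2.82 TPM in shNUP210, and at 0 and 2.81 TPM in shCon. The COL4A6 groups overlap, since 1 shCon library matched the shNUP210 libraries. The ubiquitous COL4A1 was at 0.95 and 0.85 TPM in shNUP210 and 0.15 TPM in each shCon library, or about 11 and 9 fragments against 2 in each control. COL4A2, its usual partner, was at 0 and 0.1 TPM in shNUP210 and at 0 in shCon. COL4A3 and COL4A4 stayed at or under 0.14 TPM. Summed over the 6 genes, type IV transcripts were at 7.3 and 8.6 TPM in shNUP210 and 1.6 and 4.3 TPM in shCon.

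The promoters of COL4A5 and COL4A6 are shown because their windows of 250 bases overlap by 121 bases (chrX:108439588-108439708), so that both genes have the same 2 matches to the CCAAT letters upstream, read from opposite strands, and COL4A6 has 1 more outside the shared stretch. Capitals mark matches to the 6 motifs searched above, all of which are CCAAT or its reverse complement ATTGG. The windows are chrX:108439588-108439837, plus strand, for COL4A5 and chrX:108439459-108439708, minus strand, for the first listed start of COL4A6 (RefSeq, GRCh38.p14). COL4A6 is also among the genes with GC box and SMAD matches. Those lie before another listed start of it and not in the window shown. The GENCODE start of COL4A6, 108439497 on the minus strand, lies inside the window shown.
COL4A5 promoter: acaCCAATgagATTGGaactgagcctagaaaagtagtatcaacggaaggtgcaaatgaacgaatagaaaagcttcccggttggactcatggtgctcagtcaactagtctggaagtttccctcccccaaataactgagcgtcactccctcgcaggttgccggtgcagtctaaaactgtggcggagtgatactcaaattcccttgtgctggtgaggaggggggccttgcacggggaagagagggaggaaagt
COL4A6 promoter: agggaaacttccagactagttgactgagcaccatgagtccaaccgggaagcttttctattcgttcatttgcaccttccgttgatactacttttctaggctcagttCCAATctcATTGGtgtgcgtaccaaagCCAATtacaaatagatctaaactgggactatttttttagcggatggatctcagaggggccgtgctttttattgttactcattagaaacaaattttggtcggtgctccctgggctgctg

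Among the other fibril-associated genes no consistent direction was seen. COL12A1, whose product coats type I fibrils, was at 2.72 and 12.29 TPM in shNUP210 and 5.99 and 1.29 TPM in shCon. The groups overlap, the libraries within each group lie far apart, and the residual SD of 1.22 was matched by 4.34% of tested genes at 4 to 12 TPM (log2 fold change 0.81, SE 0.83, limma adjusted p = 0.58). COL14A1, a related coat collagen, was at 1.55 and 1.64 TPM in shNUP210 and 2.79 and 2.7 TPM in shCon, without overlap. With the lower filter it did not pass (limma adjusted p = 0.484). COL16A1, a minor component of several fibrils, was at 3.53 and 1.82 TPM in shNUP210 and 3.39 and 7.5 TPM in shCon, with overlap. COL22A1, a collagen of tissue junctions, was at 0.45 and 3.77 TPM in shNUP210 and 0.23 TPM in each shCon library, so its high mean rests on 1 library. Summed, the 8 fibril-associated genes were at 65.9 and 65.5 TPM in shNUP210 and 61.2 and 60.5 TPM in shCon.

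COL6A1, a chain of the beaded filaments that surround cells, was at 2.78 and 2.98 TPM in shNUP210 and 6.59 and 5.01 TPM in shCon. The groups do not overlap and the difference did not pass (log2 fold change -0.80, SE 0.43, limma adjusted p = 0.307). Its partner COL6A2 was at 0.19 and 1.14 TPM in shNUP210 and 0.29 and 0.16 TPM in shCon. COL7A1, the chain of the anchoring fibrils of skin, was at 1.98 and 3.38 TPM in shNUP210 and 1.57 and 2.06 TPM in shCon, with overlap. COL28A1 was at 0 and 0.15 TPM in shNUP210 and 0.92 and 0.93 TPM in shCon, which is about 0 and 1 fragments against 8 in each control.

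Of the 18 collagens with a group mean of at least 1 TPM, 7 were higher in both shNUP210 libraries than in both shCon libraries, 5 were lower in both, and 6 overlapped. Over all 15777 genes with such a mean, 37.7% were higher without overlap and 12.9% lower without overlap, 50.5% in all. The 7 of 18 collagens that were higher are close to that background. The 5 of 18 that were lower make a larger share than the 12.9% of all genes, and that difference was not tested. Among the 14 genes under 1 TPM, 2 were higher without overlap (COL4A1 and COL3A1), 3 were lower without overlap (COL5A3, COL19A1 and COL28A1) and 9 overlapped. Over all 4449 genes with both group means under 1 TPM, 11.7% were higher without overlap and 5.24% lower without overlap. No collagen was listed at 0 in all 4 libraries, but this holds for 20221 of all 20226 genes listed. At 0 in at least 1 library were 9 collagens. The short-chain network genes COL8A2 and COL10A1 and the beaded filament gene COL6A6 were among those near 0, with COL10A1 at 1.95 and 0 TPM in the 2 shCon libraries. Another 12 collagen genes of the class list were not among the genes listed under these symbols, so they have no values here: COL5A1, COL24A1, COL8A1, COL6A3, COL6A5, COL20A1, COL21A1, COL13A1, COL17A1, COL23A1, COL25A1 and COL15A1.

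The genes that modify, process, degrade or bind collagen were read from a list of 69 genes, which matched 57 rows, of which 42 were tested. By limma 1 was called as higher and 1 as lower, against 1.79 and 1.07% of all genes, and at an unadjusted p under 0.05 there were 8 higher and 6 lower of the 42. Over all genes tested 24.3% reached that unadjusted p, 18.4% as higher and 5.95% as lower. ITGA1, among the 8 higher, and CTAGE5 entered the test through the shNUP210 libraries alone, so their entry is not independent of their difference. The median log2 fold change of the 42 was 0.16, against 0.23 for all genes tested. LOXL4, a lysyl oxidase family member that cross-links collagen and elastin, rose. It was at 27.69 and 24.14 TPM in shNUP210, against 7.02 and 5.33 TPM in shCon (4.20 times by the means, log2 fold change 1.91, SE 0.28, limma adjusted p = 0.0379). Of its 3653 exon bases, 152 are shared with an antisense gene on the opposite strand. That gene was at 2.39 and 0.65 TPM in shNUP210 and at 0 in shCon, and its part in the LOXL4 values was not tested. LOX, LOXL2 and LOXL3 of the same family did not pass. LOX, the founding member, was at 8.25 and 11.08 TPM in shNUP210 and 17.94 and 19.19 TPM in shCon, and LOXL2 at 18.27 and 17.41 TPM in shNUP210 and 2.54 and 7.15 TPM in shCon (limma adjusted p of 0.138 and 0.0977). P4HB, the protein disulfide isomerase that is also a subunit of prolyl 4-hydroxylase, fell. It was at 1115.17 and 1273.41 TPM in shNUP210, against 1770.57 and 1719.21 TPM in shCon (log2 fold change -0.55, SE 0.09, limma adjusted p = 0.0422). Exons of P4HB share 529 bases with an antisense gene on the opposite strand that was listed at 1741.97 and 2014.19 TPM in shNUP210 and 2279.97 and 2424.87 TPM in shCon, so the level of P4HB is uncertain. With the filter of 1 TPM in 2 libraries both calls ended (adjusted p of 0.0706 for LOXL4 and 0.079 for P4HB by limma), and leaving out any 1 of the 4 libraries ended both, with adjusted p of 0.127 to 0.173 for LOXL4 and 0.115 to 0.167 for P4HB (limma).

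**Figure D4:**
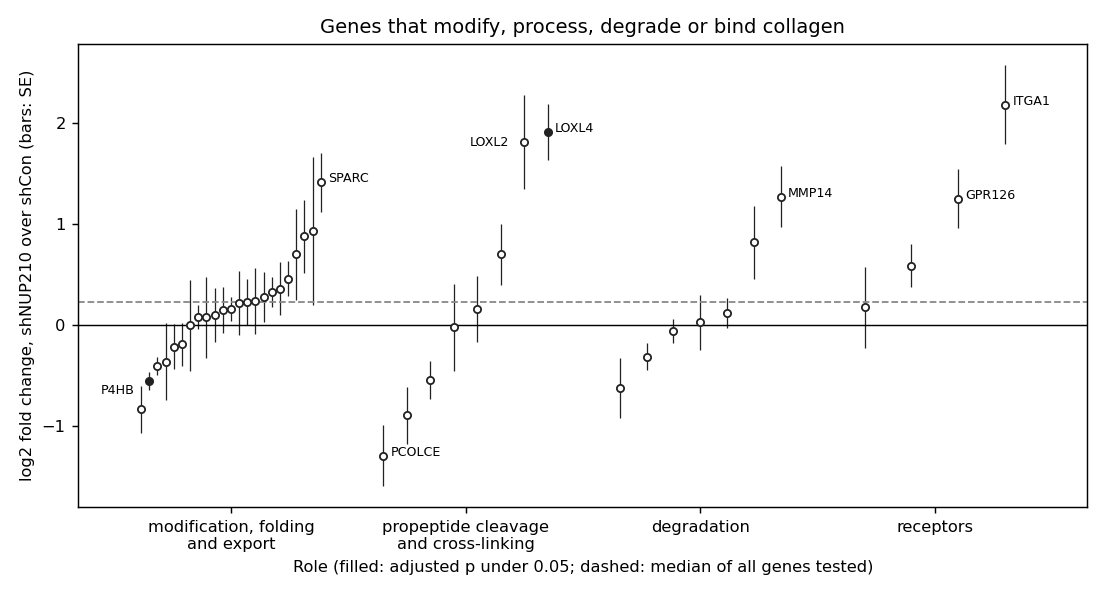
log2 fold change of TPM + 1, shNUP210 over shCon, for the 42 tested genes that modify, process, degrade or bind collagen, by role; bars are standard errors, filled points passed an adjusted p of 0.05 (LOXL4 and P4HB), and the dashed line is the median of all genes tested (0.23). Genes called and those with a fold beyond 1.2 on the log2 scale are labelled, and most of the modification and export genes lie near the dashed line.

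Of 23 tested genes of chain modification, folding and export, 0 rose, 1 fell and 22 did not pass. The dedicated collagen chaperone SERPINH1 was at 227.82 and 257.89 TPM in shNUP210 and 229.34 and 205.78 TPM in shCon, with overlap (limma adjusted p = 0.453). SPARC, a matrix protein that binds collagen, was at 52.74 and 72.59 TPM in shNUP210 and 28.88 and 17.66 TPM in shCon (adjusted p = 0.0712, limma). Of 8 cleavage and cross-linking genes 1 rose and 0 fell. PCOLCE2, an enhancer of procollagen trimming and the most abundant of that role, was at 51.41 and 21.4 TPM in shNUP210 and 40.65 and 28.06 TPM in shCon, and its relative PCOLCE at 6.53 and 6.39 TPM in shNUP210 and 20.18 and 14.79 TPM in shCon (limma adjusted p of 0.981 and 0.0842). Of 7 degradation genes none passed, and PEPD, which frees proline from collagen fragments, was at 148.14 and 135.46 TPM in shNUP210 and 152.85 and 142.06 TPM in shCon. MMP14, a membrane-bound collagenase, was at 93.14 and 78.43 TPM in shNUP210 and 46.64 and 25.86 TPM in shCon (limma adjusted p = 0.0836). None of the 4 tested receptor genes passed. ITGB1, the shared chain of the collagen-binding integrins, was at 213.45 and 157.64 TPM in shNUP210 and 142.7 and 104.11 TPM in shCon (limma adjusted p = 0.176). ITGA1, a collagen-binding partner of it, was at 11.06 and 15.72 TPM in shNUP210 and 2.35 and 1.94 TPM in shCon (limma adjusted p = 0.0531). ITGA1 passed the filter of 5 TPM only through the group where it was high. SERPINH1, SPARC, LOX, LOXL2, PCOLCE, MMP14 and ITGA1 were chosen after their values were seen.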

How the data were processed

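Per the labels' protocols, Trizol-extracted total RNA of Huh7 cells was sequenced after TruSeq RNA library preparation (Illumina). The authors deposited 1 table of TPM per library; the unit was read from column totals of 999992.7 to 999997.8. Trimmomatic, STAR, RSEM and DESeq with hg38 are named in the submitters' processing notes, without versions or roles, and RSEM-type sharing of reads between overlapping genes or paralogs can move single values.

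The 4 tables were joined by gene identifier and tested with limma 3.58.1 (R 4.3.3) on log2(TPM + 1), a pseudocount of 1, with a mean-variance trend, for genes with at least 5 TPM in 2 libraries. P-values are two-sided and adjusted by Benjamini-Hochberg over all 10140 genes. The scale understates folds of low genes. With 2 libraries against 2, a permutation test cannot go below 0.33. The procedure was run on simulated data with independent noise, which cannot show how it performs on these 4 libraries. Positions, exon overlaps and coding sequences came from GENCODE release 29, promoters from RefSeq. Collagens with a group mean of at least 1 TPM are named with their values, and of the list of related genes those called and the most abundant of each role. The members, lists, filter and test were chosen with earlier results of these data known. The fit and the filter of 5 TPM in 2 libraries were chosen with counts of called genes in view. Adjusted p-values take no account of that choice. Alternatives covered filters, pseudocounts of 0.1 and 0.5, scalings, the variance model, a replicate block and leaving out each library. TPM give no read depth, so counting intervals are not given, and the fragment numbers quoted are approximate.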

Additional observations from a re-analysis of the deposited data

How the results depend on the processing

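Collagen calls were 2 higher and 2 lower in the fit reported. They were 0 and 0 with a filter of 1 TPM in 2 libraries, with no filter, without the mean-variance trend, and with a pseudocount of 0.1 at the lower filter, a setting chosen after seeing the data because collagen transcripts are long. Quantile normalization gave 1 higher. Leaving out 1 library gave 0 higher and 0 to 1 lower. The related genes, 1 higher and 1 lower as reported, gave 0 and 0 under those 4 settings. They gave 2 higher (LOXL4 and ITGA1) with 1 TPM in all 4 libraries, 2 lower (P4HB and PPIB) with trimmed-mean, median-ratio and upper-quartile scaling, 0 lower with quantile normalization, and 0 higher and 0 lower with any library left out. Over all genes, calls were 181 higher and 109 lower. They were 30 and 27 with 1 TPM in 2 libraries, 10 and 5 with no filter, 78 and 250 with trimmed-mean scaling, 81 and 248 with median-ratio scaling, 92 and 230 with upper-quartile scaling, 87 higher with quantile normalization, 0 and 0 without the trend (2290 genes at an unadjusted p under 0.05), 24 and 22 with the added setting, and 3 to 14 higher and 1 to 13 lower with a library left out. The wider filters test more genes and the fits without a library use fewer samples.

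Samples that share a replicate number did not deviate together (r = 0.0231 across 10140 genes, which are not independent replicates), so the numbers were not taken as pairs. With the replicate block, collagen calls were 0 higher and 1 lower (COL2A1, adjusted p = 0.0354 by limma), the related genes gave 0 and 0, and all genes 31 and 32. The block also ended the NUP210 call (log2 fold change -1.49, adjusted p = 0.082).

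NUP210 had the same fold of -1.49 and missed the threshold with 1 TPM in 2 libraries, with no filter and without the trend. It also missed the threshold in the added setting, at -1.58 (limma adjusted p = 0.0932), and with any 1 of the 4 libraries left out, at -1.62 to -1.37 (limma adjusted p of 0.162 to 0.167). The fold of COL2A1 ranged from -1.78 to -1.33, of COL5A2 from 1.14 to 1.45, of COL1A2 from 1.15 to 1.47 and of COL26A1 from -1.47 to -1.19 over 17 alternatives, of which filters and variance models leave a fold as it is. COL1A1 ranged from 1.38 to 2.60 (limma adjusted p 0.111 to 0.379), with 1.38 without shNUP210 replicate 1 and 1.44 without shCon replicate 1. Signs turned for values near 0 or with a wide spread. COL9A2, at 0.05 and from -0.18 to 0.29 with a library left out, was at -0.18 with trimmed-mean and median-ratio scaling and without shNUP210 replicate 1, -0.15 with upper-quartile scaling and -0.17 with quantile normalization. COL9A3, at 0.11, was at -0.12, -0.11, -0.08 and -0.18 under those 4 scalings in the same order and from -0.02 (without shNUP210 replicate 2) to 0.23 with a library left out. Over the fits without a library, COL12A1 ranged from -0.11 to 1.73, PEPD from -0.12 to 0.01 and PCOLCE2 from -0.64 to 0.59. Their values without shNUP210 replicate 2 were -0.11, 0.01 and 0.59, and PCOLCE2 was at 0.24 without shCon replicate 1.

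The sum of collagen TPM differed by -79.8 TPM, shNUP210 minus shCon, in the values as deposited, and by -178.0, -176.1, -162.9 and -143.1 TPM with trimmed-mean, median-ratio, upper-quartile and quantile scaling. For fibrillar genes it was -75.8 TPM, and -130.5, -129.5, -122.2 and -106.7 TPM in the same order. Without COL18A1, a setting chosen after seeing the data, the difference over all collagens was -104.7 TPM. COL2A1, whose mean fell by more than either sum as deposited, was not left out in any setting. The cause of these changes was not tested.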

Other observations

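The rows of the deposited tables fall into a first block of 2828 genes that is not in order of gene identifier, 14.0% of all genes, and a remainder sorted by identifier. The block holds 10 of the 32 collagens, in the order COL2A1, COL5A2, COL26A1, COL1A2, COL1A1, COL4A5, COL11A1, COL6A1, COL4A1 and COL14A1. In each of these 10 the shNUP210 and shCon libraries do not overlap, as is the case for 2463 (87.1%) of the 2828 genes of the block, and the 4 genes called here come first among the collagens. Over all 15777 genes with a group mean of at least 1 TPM, 50.5% do not overlap. The sources used here do not say what the block is. Its order may itself rest on these 4 libraries, so it is no separate support for the calls.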
